A study of Psychotria grandis and Psychotria costivenia and Psychotria revoluta with 6 samples.

Results

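Leaf transcripts of Psychotria costivenia, a shrub labelled as a nickel hyperaccumulator, were compared with those of Psychotria revoluta, labelled as a non-accumulator. The comparison took 4 of the 6 libraries of the series, chosen by species: the 2 P. costivenia plants and the 2 P. revoluta plants, 1 library of polyA RNA per plant. Both P. costivenia plants grew at La Coca and were collected on 12 June 2014. Both P. revoluta plants grew at Mil Cumbres, and the labels date plant 1 to 27 July 2014 and plant 2 to 27 June 2014. The other plants of that locality are all dated to June, so the July date may be an error, and it was used as given. All were wild plants of gallery forest on serpentine, a soil rich in nickel and other metals. The remaining 2 libraries came from P. grandis, also labelled as a hyperaccumulator, collected at Mil Cumbres, and served to show the level in a further species and in 1 alternative fit. Species, locality, collection date and phenotype all differed between the groups and cannot be told apart. The count columns of both P. revoluta plants carry another species prefix (Pcle) in the file headers, and the species used here is that of the labels.

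Nickel hyperaccumulators take up nickel through roots, load it into the xylem and store it in leaves at levels that injure most plants. In studied species, free histidine, nicotianamine and organic acids such as citrate bind the metal, and transporters of the ferroportin (IREG) family move it into the vacuole. Whether these genes differ between the Psychotria species could not be read from these data, because the files pair no contig with a gene name or a sequence. A contig is a transcript assembled from reads, here of P. grandis. Reads of both other species were counted on these P. grandis contigs, and the part that sequence divergence has in the counts was not tested. For the same reason the leaf label could not be checked against leaf genes.

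The 4 libraries held 46760513 and 48322940 counts in P. costivenia and 57907913 and 48791330 counts in P. revoluta. Reads fell on 36216 and 35362 of the 45143 contigs in P. costivenia, against 35465 and 38589 contigs in P. revoluta. After a filter on low counts, 32733 contigs (72.5%) were tested, and these held 99.9% of the counts. A count of 0 in both plants of a species allows up to 3 counts, or 0.0316 CPM (counts scaled to a common library total) in P. costivenia and 0.0281 CPM in P. revoluta. These floors cover counting error only.

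In the main fit of these 4 libraries, more of the tested contigs were called than not. At an adjusted p of 0.05 by edgeR's quasi-likelihood test, 9603 contigs had a higher and 8842 a lower TMM-scaled level in P. costivenia. The 18445 called contigs were 56.3% of those tested, 29.3% higher and 27.0% lower. Both plants of one species lay above both plants of the other for each called contig. In all, 26905 contigs (82.2%) did not overlap between the species on the TMM scale, 13461 of them higher and 13444 lower in P. costivenia, and 8460 of these (25.8% of those tested) were not called. On CPM of the library total, 11306 such contigs were higher and 15795 lower. With 2 plants against 2, a share of 0.333 of contigs would not overlap if the order of the plants were random. The split between directions depended on the scale. TMM, which sets the centre of the fold changes near 0, gave a median log2 fold change of 0.01 over all tested contigs. Scaling by library totals alone moved that median to -0.29, and then 7897 contigs passed as higher and 10917 as lower (57.5% of those tested), so the balance turned towards lower.

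The number of calls fell further without a P. revoluta plant than without a P. costivenia plant. Without P. revoluta plant 1, 4674 contigs passed as higher and 3142 as lower in P. costivenia (22.7% of those tested). Without P. revoluta plant 2 these numbers were 5074 and 3834 (26.1%). Without P. costivenia plant 1 they were 8948 and 8463 (50.7%), and without plant 2 of that species 9045 and 8637 (51.6%). Without a P. revoluta plant, the spread between plants came from the P. costivenia pair alone. That pair varied more (coefficient of variation beyond counting noise 42.1%, against 24.1% in P. revoluta). Whether this spread accounts for the drop was not tested. Each of these fits leaves a species with 1 plant, which is assumed to vary like the other species. In all 4 of them 6962 of the called contigs (37.7%) passed in the same direction, 4230 higher and 2732 lower. Fitted together with the P. grandis plants, 3855 contigs passed as higher and 2426 as lower (17.6%).

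**Figure D1:**
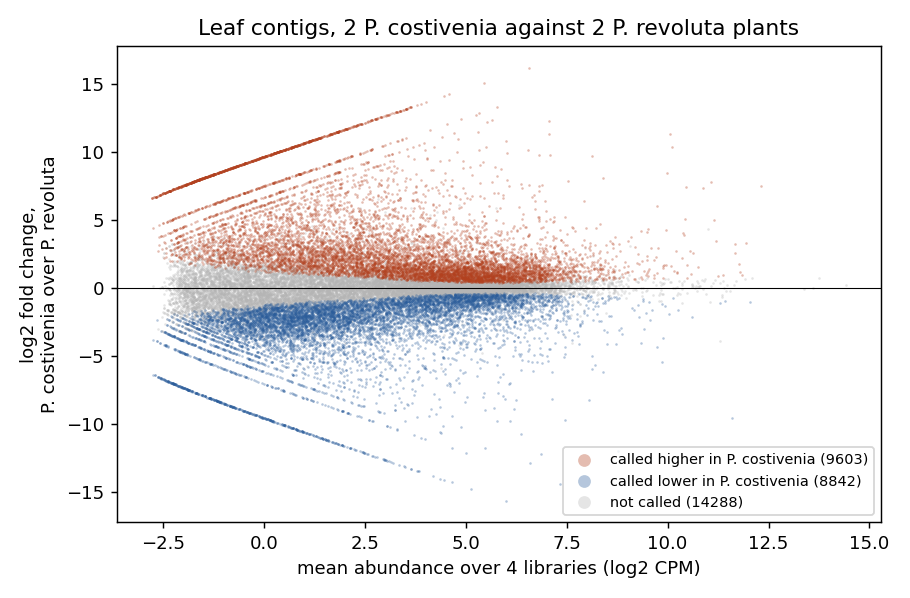
Log2 fold change of P. costivenia over P. revoluta (vertical axis) against mean abundance in log2 CPM (horizontal axis) for 32733 contigs, 1 point each, coloured by the edgeR call. Called contigs lie on both sides at every abundance, 9603 above and 8842 below 0. The outermost diagonal lines are contigs without reads in 1 species, whose fitted fold change depends on the prior count and is no measured size.

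The differences were large compared with those between plants of a species. The P. costivenia plants differed at least 2-fold in 2005 contigs (6.13% of those tested, on TMM-scaled CPM + 1) and the P. revoluta plants in 669 contigs (2.04%). A P. costivenia plant and a P. revoluta plant differed that much in 12602 to 13434 contigs (38.5% to 41.0%) over the 4 pairs. The added 1 damps differences among the 7541 tested contigs under 1 CPM, which lowers all of these shares. Beyond counting noise, plants varied with a biological coefficient of variation of 42.1% in P. costivenia and 24.1% in P. revoluta. Among called contigs the plants differed by a median of 0.23 log2 units in P. costivenia and 0.17 in P. revoluta, and among uncalled contigs by 0.32 and 0.22. Over all tested contigs, 19928 (60.9%) had a gap between the nearest plants of the 2 species wider than the difference between plants within either species. They were 17266 of the called contigs (93.6%) and 2662 of the uncalled ones (18.6%). The test calls contigs whose plants agree within a species, so the shares by call describe the calls and do not support them.

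Of the called contigs, 15855 (86.0%) differed at least 2-fold and 10416 (56.5%) at least 4-fold. At 4-fold or more, 5219 contigs were higher (15.9% of those tested) and 5197 lower (15.9%) in P. costivenia. With contigs unread in 1 species counted at a bound, the largest differences fell more often on the side of P. costivenia. At least 16-fold, 2435 contigs were higher and 1564 lower, and at least 64-fold, 1103 were higher and 522 lower. Library totals gave 4550 higher and 6189 lower at 4-fold, which turned towards lower, but 2246 and 1826 at 16-fold and 1011 and 590 at 64-fold. Contigs without reads in the lower species enter these numbers at a lower bound, set against 3 counts over both plants. Of the called contigs, 940 had no reads in P. revoluta and 473 none in P. costivenia. That bound was taken on library totals under either scaling. Higher contigs had a median log2 fold change of 2.20, and lower contigs one of -2.29. Tested against a 2-fold change in place of no change, 5771 contigs were higher and 5133 lower (33.3% of those tested, edgeR glmTreat). Among contigs with at least 10 counts in every library, fitted alone, 2405 were higher and 2649 lower by at least 4-fold. Without P. revoluta plant 1 the contigs at least 4-fold apart numbered 3362 higher and 2363 lower, and without plant 2 they numbered 3613 and 2880.

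**Figure D2:**
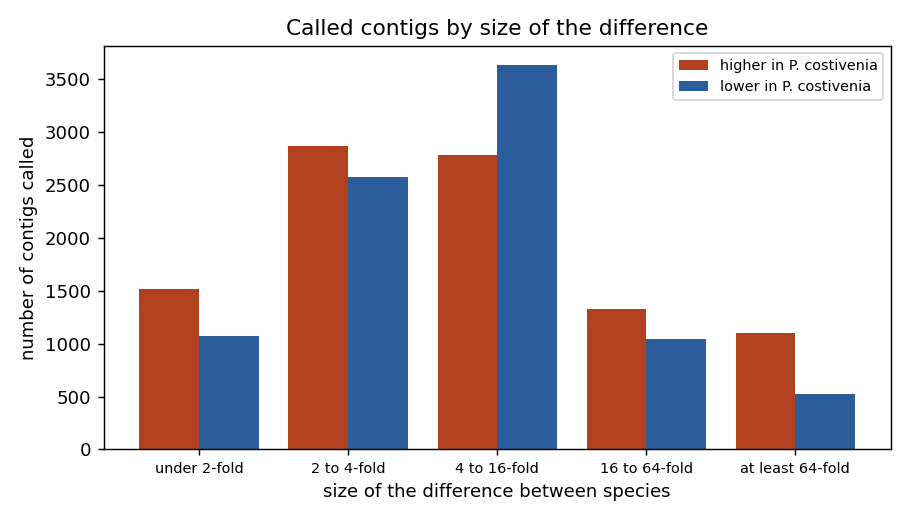
Number of contigs called (vertical axis) by size of the difference between the species (horizontal axis), higher in P. costivenia beside lower in P. costivenia. Lower contigs outnumber higher ones from 4-fold to 16-fold (2784 higher, 3633 lower), and higher ones outnumber lower ones from 64-fold (1103 higher, 522 lower).

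Contigs that took many reads were more often higher in P. costivenia, and those with few reads more often lower. CPM is not corrected for contig length, so the classes below order contigs by reads and not by transcript level. Under 1 CPM (TMM-scaled mean of both species), 1658 of 7541 contigs were higher and 1985 lower in P. costivenia. From 1 to 10 CPM, 3643 of 12835 were higher and 3997 lower. From 10 to 100 CPM the order turned, with 3619 of 10664 higher and 2545 lower. From 100 to 1000 CPM, 651 of 1598 were higher and 307 lower, and at 1000 CPM or more, 32 of 95 were higher and 8 lower. The median log2 fold change over all contigs of a class ran from -0.39 in the lowest to 0.44 in the highest. Under library totals alone it ran from -0.69 to 0.14, and the class of 10 to 100 CPM then had 2688 contigs higher and 3586 lower. Both classes from 100 CPM upward kept more higher than lower contigs under that scale, 513 against 421 and 27 against 12.

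**Figure D3:**
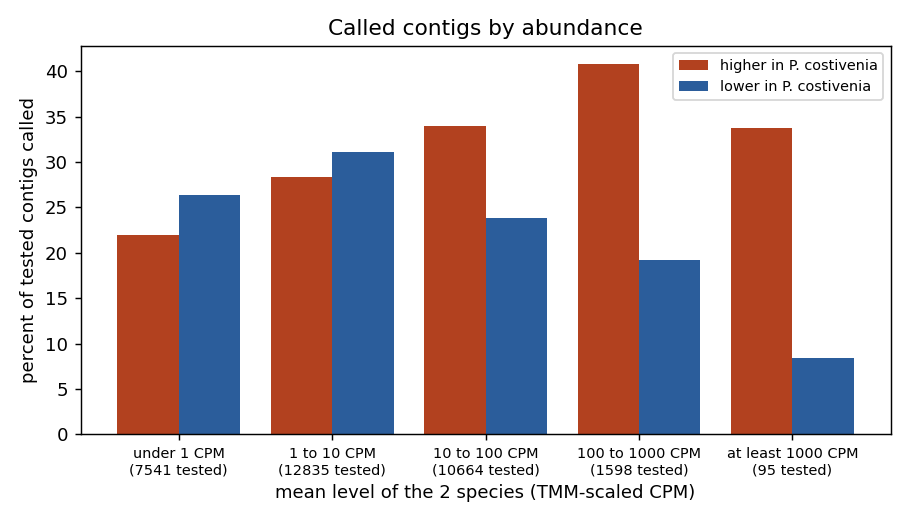
Percent of tested contigs called higher and lower in P. costivenia (vertical axis) by mean TMM-scaled CPM of the 2 species (horizontal axis). The share higher reaches 40.7% from 100 to 1000 CPM, where 19.2% were lower, and under 1 CPM 22.0% were higher and 26.3% lower. Under library totals the order from 10 to 100 CPM is the opposite.

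The called contigs carried a large part of the counts, and were also 56.3% of the contigs tested. Uncalled contigs, 43.7% of those tested, took on average 44.0% of the counts in P. costivenia and 51.2% in P. revoluta. Contigs higher in P. costivenia took 47.7% ± 0.215 of the counts of its plants and 18.5% ± 0.284 of the counts of P. revoluta (SD, n = 2 each). Contigs lower in P. costivenia took 8.17% ± 0.182 of its counts and 30.2% ± 1.19 of those of P. revoluta. The 95% exact binomial intervals of these shares within a plant were at most 0.014 percentage points to either side and cover counting error only. The contigs were chosen for their difference in these plants, so the shares describe its extent and do not test it. Contigs higher by at least 4-fold alone made up 19.2% ± 0.161 of the counts of P. costivenia and 2.40% ± 0.0783 of those of P. revoluta. Contigs lower by at least 4-fold made up 1.05% ± 0.0573 of the counts of P. costivenia and 11.9% ± 0.883 of those of P. revoluta.

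The contigs with the most reads were partly the same in both species. Of the 100 contigs with the highest mean in P. costivenia and the 100 in P. revoluta, 58 were on both lists, 58% of each. Of the 100 in P. costivenia, 48 were called higher there and 3 lower, 29 of the higher ones by at least 4-fold. Of the 100 in P. revoluta, 27 were called lower and 9 higher in P. costivenia, 12 of the lower ones by at least 4-fold. The background over all tested contigs was 29.3% higher and 27.0% lower. A contig enters such a list through its level in the same plants, which favours calls in that direction.

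Contigs are named by number, 2 in each direction and 2 without a call, and the files tie none of them to a gene. Pgra_v1_contig_324 had the highest mean CPM in P. costivenia among higher contigs. It stood at 6481 and 11852 CPM in P. costivenia plants 1 and 2, against 44.2 and 79.4 CPM in P. revoluta plants 1 and 2. By counts it ranked 7 and 3 within the P. costivenia libraries, against 4755 and 2302 within the P. revoluta libraries. The groups did not overlap, and both P. costivenia plants were far above both P. revoluta plants. Its log2 fold change was 7.51 (SE 0.60, adjusted p = 0.00188 by edgeR). In P. grandis it was at 115 and 57.8 CPM, near P. revoluta.

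Pgra_v1_contig_1732 had the largest fold change among the 4547 higher contigs with at least 10 counts in every library, a log2 CPM of at least 3 and no overlap. It stood at 861.9 and 3007 CPM in the P. costivenia plants, against 0.311 and 1.56 CPM in the P. revoluta plants, where 18 and 76 counts were found. Both species varied several-fold between plants, and the gap between them was far wider. Its log2 fold change was 11.32 (SE 1.34, adjusted p = 0.0038 by edgeR). Without P. costivenia plant 1 or plant 2 it was 11.97 or 10.17, and without P. revoluta plant 1 or plant 2 it was 10.53 or 12.87. Here P. grandis lay between the species, at 74.8 and 311.9 CPM.

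Among contigs lower in P. costivenia, Pgra_v1_contig_35332 had the highest mean CPM in P. revoluta, and also the largest fold change under the limits above. It stood at 12.6 and 1.88 CPM in the P. costivenia plants, against 7113 and 6547 CPM in the P. revoluta plants. The P. revoluta plants were close to each other, and it ranked 5 by counts in both. Its log2 fold change was -9.58 (SE 1.21, adjusted p = 0.00436 by edgeR). Without P. costivenia plant 1 or plant 2 it was -11.52 or -8.78. With the P. grandis plants in the model the call was missed (adjusted p = 0.0514), where the adjusted p over all 14 alternatives ran from 1.74e-36 (DESeq2) to 0.0514. The P. grandis plants were far apart, at 17.6 and 964.9 CPM.

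Pgra_v1_contig_67 had the next largest fold change after Pgra_v1_contig_35332 among the 3046 lower contigs under the same limits on counts, abundance and overlap. It stood at 0.941 and 2.26 CPM in the P. costivenia plants, against 787.1 and 403.5 CPM in the P. revoluta plants. The groups did not overlap, and both P. grandis plants, at 1299 and 342 CPM, stood with P. revoluta. Its log2 fold change was -8.23 (SE 0.68, adjusted p = 0.00201 by edgeR). Without P. costivenia plant 1 or plant 2 it was -7.73 or -8.99, and without P. revoluta plant 1 or plant 2 it was -7.72 or -8.66. Pgra_v1_contig_324, Pgra_v1_contig_1732 and Pgra_v1_contig_67 kept their call under all 14 alternatives, with adjusted p of at most 0.0232, 0.0369 and 0.0232.

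Pgra_v1_contig_4898 took the most counts in all 4 libraries. It stood at 20990 and 21246 CPM in the P. costivenia plants, against 20324 and 25198 CPM in the P. revoluta plants. On these CPM of the library total the groups overlapped. On the TMM scale they did not, at 23282 and 23622 CPM in the P. costivenia plants, against 18000 and 23150.2 CPM in the P. revoluta plants. The log2 fold change of 0.19 (SE 0.27) did not pass (adjusted p = 0.577 by edgeR). Its sign turned under library totals, to -0.11. The P. grandis plants were far apart here too, at 44.5 CPM in plant 1 and 20086 CPM in plant 2. Pgra_v1_contig_36369 had the largest fold change among contigs without a call under the limits on counts and abundance. It stood at 0.299 and 0.931 CPM in the P. costivenia plants, against 91.9 and 0.717 CPM in the P. revoluta plants. Only P. revoluta plant 1 was high, and the other 3 plants lay within 0.299 to 0.931 CPM. Its log2 fold change was -5.90 (SE 2.26, adjusted p = 0.0811 by edgeR), and without P. revoluta plant 1 it was 0.04. DESeq2 called this contig (adjusted p = 0.0157), as did edgeR without P. revoluta plant 2 (adjusted p = 0.0261), where the adjusted p over all 14 alternatives ran up to 0.98.

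**Figure D4:**
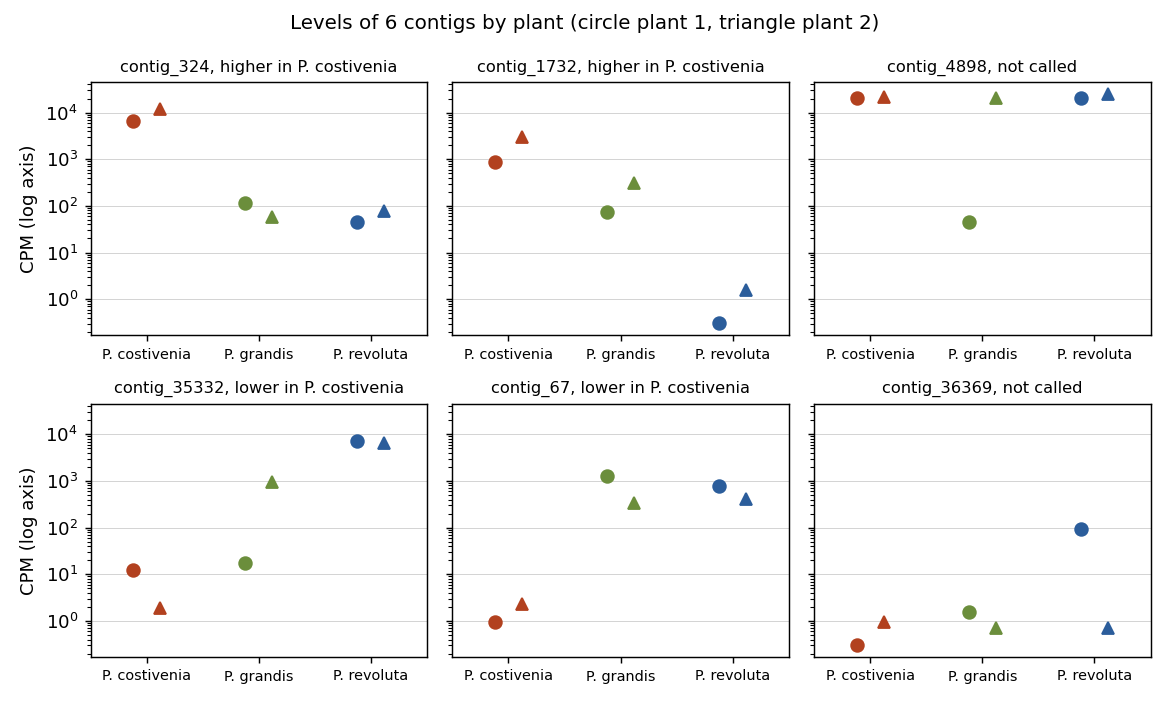
CPM of 6 contigs in each plant (vertical log axis) for P. costivenia, P. grandis and P. revoluta (horizontal axis), circles for plant 1 and triangles for plant 2. Pgra_v1_contig_324 and Pgra_v1_contig_1732 are high in both P. costivenia plants, Pgra_v1_contig_35332 and Pgra_v1_contig_67 in both P. revoluta plants, and Pgra_v1_contig_36369 in P. revoluta plant 1 alone.

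Some contigs were read in one species and not in the other. Counting any read in the other species, 4721 contigs were unread in P. costivenia and 2399 in P. revoluta. A minimum of 10 counts in each plant of the other species turned that order. No read was found in either P. revoluta plant for 942 contigs with at least 10 counts in each P. costivenia plant. No read was found in either P. costivenia plant for 490 contigs with at least 10 counts in each P. revoluta plant. Most of these contigs were low where they were read, with a median of 1.45 CPM in P. costivenia for the 942 contigs and 1.22 CPM in P. revoluta for the 490. At 10 CPM or more stood 67 of the 942 contigs and 41 of the 490, and the highest reached 169.6 CPM in P. costivenia and 141.1 CPM in P. revoluta. Against the floor of 3 counts over both plants, on library totals, the median contig was at least 51.6-fold higher in P. costivenia among the 942. Among the 490 it was at least 38.6-fold lower in P. costivenia on that scale. TMM scaling would make the first fold larger and the second smaller. With at least 50 counts in each plant of the other species, the numbers were 451 and 259.

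P. grandis plant 2 had reads for 821 of the 942 contigs unread in P. revoluta (87.2%). It had reads for 484 of the 490 unread in P. costivenia (98.8%) and for 37455 of all 45143 contigs (83.0%). These numbers count any read. With a minimum of 10 counts, P. grandis plant 2 reached it for 500 of the 942 and 437 of the 490. Its median level was 0.24 CPM over the 942 and 1.29 CPM over the 490. All contigs include 2864 without reads in any of the 4 libraries, while the 942 and 490 needed at least 10 counts in 2 plants. The 83.0% is therefore no background of contigs with like counts. P. grandis plant 1 had reads on 45142 of all 45143 contigs, so its reads on all of the 942 and 490 are no property of these contigs. Every contig had to be in the P. grandis assembly to be listed, so these shares describe the reference as well as the plants.

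The P. grandis libraries did not enter the fit of the 4 libraries, and they gave the level in a further species for the contigs that separated the other species by at least 4-fold. P. grandis plant 2 lay nearer to P. revoluta on both sides. It was on the P. costivenia side of the midpoint for 1315 of 5219 contigs higher in P. costivenia (25.2%) and for 873 of 5197 lower contigs (16.8%). P. grandis plant 1 was on the P. costivenia side for 2845 higher contigs (54.5%) and 3560 lower ones (68.5%). On CPM of the library total the shares were 61.8% and 65.9% for plant 1 and 32.2% and 13.4% for plant 2. P. grandis plant 1 stood apart from the other libraries, with 16.2% of its counts on 10 contigs, against 8.59% in P. grandis plant 2. Both P. grandis plants carry the hyperaccumulator label. They share locality and date with P. revoluta plant 2 and no locality with P. costivenia.

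**Figure D5:**
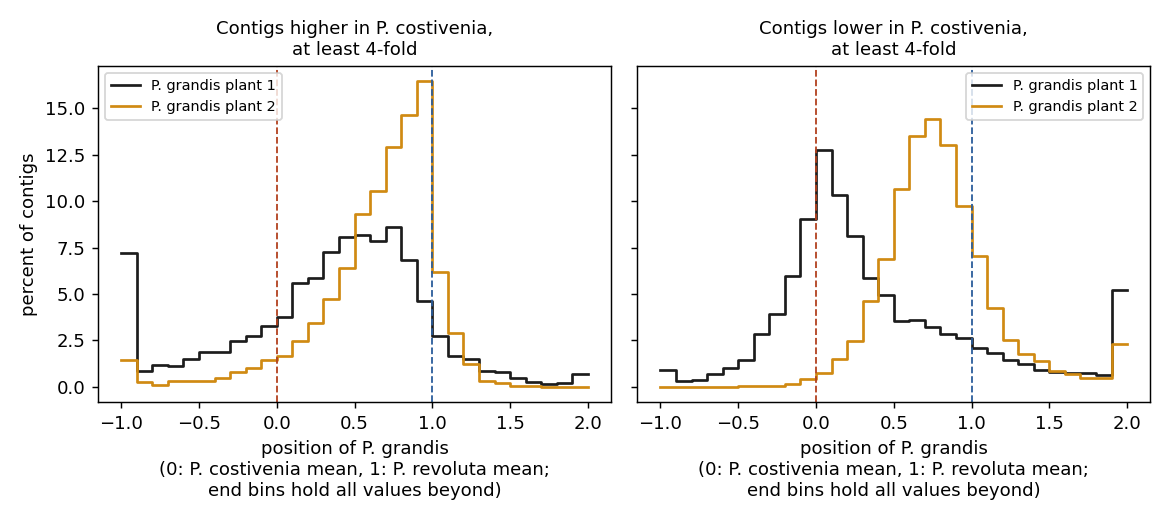
Position of each P. grandis plant on the log2 scale between the P. costivenia mean (0) and the P. revoluta mean (1) (horizontal axis) and percent of contigs (vertical axis), for contigs called and at least 4-fold apart. For lower contigs the median position is 0.20 in plant 1 and 0.76 in plant 2, and for higher contigs 0.44 and 0.74.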

How the data were processed

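The authors deposited raw read counts per contig of a de novo P. grandis assembly, 1 table per plant, per the file headers and the design text. Libraries were stranded mRNA libraries of single plants, per the labels' protocols. Not given in the sources used here are the assembler, aligner, counter, strand setting and multi-mapping rule, so contigs of similar sequence may share counts. Contigs were kept by filterByExpr (minimum count 10, total 15). edgeR 4.0.16 (R 4.3.3) with TMM and a robust quasi-likelihood fit of species was run on the 4 libraries (residual degrees of freedom 2, prior 2.76 at the median), with two-sided p-values adjusted by Benjamini-Hochberg over 32733 contigs. They set the species difference against the spread between these plants, with the spread of each contig drawn towards that of other contigs. Each species came from 1 locality, so these p-values cover no other locality. They reach other plants there only as far as the 2 plants of a species represent them. The SE is the absolute log2 fold change over the square root of F. Differences between plants of a species in log2 units used TMM-scaled CPM + 0.5, and P. grandis positions CPM + 1.

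Named contigs had the highest mean CPM or the largest fold change in a direction, and 2 uncalled ones were chosen alike. Prepared gene lists (metal transport, ligands, iron, sulfur, photosynthesis, stress, leaf cells) could not be applied to unnamed contigs. The comparison, rules and lists were chosen with earlier results of these data known. Plants of a species differed by a chi-square statistic per contig of 84.2 in P. costivenia and 51.8 in P. revoluta, where sampling alone gives about 1, so none was counted as a copy. Alternatives covered other scalings, filters and tests (DESeq2 1.42.0, limma-voom 3.58.1), a replicate block, all 6 libraries and each plant left out.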

Additional observations from a re-analysis of the deposited data

How the results depend on the processing

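The counts of 9603 higher and 8842 lower contigs stayed within 1.5 times under 11 of 15 alternatives each, where they ran from 3855 to 10184 and from 2426 to 10917 over all 15. They left that range with all 6 libraries (3855 and 2426), against a 2-fold change (5771 and 5133), and without 1 of the P. revoluta plants. Over the 4 fits that left out a plant they were 4674 to 9045 higher and 3142 to 8637 lower. The counts at least 4-fold apart (5219 and 5197) were 2405 and 2649 with at least 10 counts in every library, where fewer contigs were tested, and 3244 and 2151 with all 6 libraries. Leaving out a plant gave 3362 to 5001 higher and 2363 to 5361 lower. The cause of the drop with all 6 libraries or without a P. revoluta plant was not tested. DESeq2 called 10184 higher and 8983 lower contigs, and limma-voom 9667 and 9161. With contigs unread in P. revoluta or P. costivenia, 50 counts in place of 10 gave 451 and 259.

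Over all tested contigs the median log2 fold change (0.0077) was -0.29 under library totals, -0.14 with upper-quartile scaling, 0.0254 with RLE, 0.0257 in DESeq2, -0.0216 in limma-voom, -0.15 without a filter, -0.0041 with at least 10 counts in every library and -0.00102 with all 6 libraries. It was -0.0708 to 0.0365 without 1 plant. Of the 18445 calls, 16739 (90.8%) kept call and sign under library totals, and 0 were called in the opposite direction under any of the 15 alternatives. Pgra_v1_contig_4898 turned to -0.11 under library totals and Pgra_v1_contig_36369 to 0.0365 without P. revoluta plant 1, with a range of -6.93 to 0.0365 over the 4 fits that left out a plant.

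The plant numbers of the labels are not said to pair plants across species, and the differences of plant 1 from plant 2 were hardly correlated between the species (r = 0.02 across 32733 contigs). With the replicate block, 8496 contigs were higher and 7368 lower (median log2 fold change -0.0183), and 15566 of the 18445 calls (84.4%) were kept. Among contigs with few reads the differences called were larger. The median absolute log2 fold change of called contigs was 3.50 under 1 CPM and 1.31 from 10 to 100 CPM. Small differences are harder to call at few reads: the 10th percentile was 2.00 under 1 CPM and 0.63 from 10 to 100 CPM. These medians thus describe the calls and not the size of all differences in a class.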

Other observations

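Many abundant contigs were level across the 4 plants. Of 12357 contigs with a mean of at least 10 CPM, 5869 (47.5%) had all 4 plants within 2-fold of each other on TMM-scaled CPM, and 1608 of these (27.4%) were called by edgeR, against 56.3% of all tested contigs. They were chosen for small differences. Among the 1693 contigs of at least 100 CPM, 764 (45.1%) were that level.

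By some measures counts were spread over fewer contigs in P. costivenia than in P. revoluta. The contigs that together held 50% of the counts numbered 780 and 772 in the P. costivenia plants, against 1067 and 951 in the P. revoluta plants. In P. grandis plants 1 and 2 they numbered 631 and 1157. Contigs of at least 1000 CPM held 27.1% and 27.8% of the counts in the P. costivenia plants, against 22.7% and 24.4% in the P. revoluta plants. By other measures the species overlapped: the 10 contigs with the most reads held 9.71% and 9.36% of the counts in P. costivenia, against 8.62% and 9.47% in P. revoluta, and the numbers of contigs with reads overlapped too. With 2 plants against 2, an exact permutation test cannot give a two-sided p below 0.333.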
